A study of Danio rerio with 4 samples.

Results

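The 200 transcripts that carried the most monosome footprints per codon in the zebrafish embryo at 4 hours postfertilization (hpf) are described here. They were chosen on measured values. Among transcripts with a coding sequence of more than 100 and up to 2000 codons, the monosome counts of both libraries were summed and divided by the number of codons, and the 200 highest were taken. Before the ranking, 37 rows of the mitochondrial genome were left out, a transcript with the same 4 counts as one listed earlier was dropped, and 458 transcripts whose share of the disome footprints was 4 or more times their share of the monosome footprints were left out. Repeated counts took out 28250 of the 42545 transcripts left in this length range, and 15893 of those dropped had no footprint in any library. The ranking was then made over 13837 transcripts, of which the 200 members are 1.45%. Of the ranked transcripts, 13836 had monosome footprints, so transcripts without any are nearly absent from the comparisons. The rule used both the monosome counts and the limit on the disome share, so the levels and ratios of the members are a description and carry no test.

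All 4 libraries came from whole embryos of the wild type AB strain, which had been injected at the 1-cell stage with sfGFP mRNAs, a mix of reporter messages, and were collected at 4 hpf. Disome and monosome footprints were sequenced with 2 libraries each, and the design holds no other genotype, stage or uninjected group. A library is called by its kind and replicate number. Counts summed to 473057 and 364830 in the disome libraries and to 2749837 and 3814224 in the monosome libraries. The labels do not say whether the replicates came from separate clutches, so the spread between them may be technical.

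A translating ribosome shields a stretch of mRNA from nuclease, and sequencing the shielded fragments shows which coding sequences are occupied. A single ribosome leaves a monosome footprint, whereas a pair of ribosomes in contact, as when a trailing ribosome runs into a slowed leading one, leaves a longer disome footprint. The number of monosome footprints on a coding sequence rises with the number of mRNA molecules, with how often ribosomes start on each of them, and with how long each ribosome stays. Dividing by the coding length allows for the larger number of codons in a long message, though other effects of length can remain. The embryo at this age has begun to transcribe its own genome and still holds messages laid down by the mother. Abundance and ribosome load per message cannot be told apart in footprint counts alone.

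The transcripts are given in the deposited tables by Ensembl transcript identifier, which was not paired with gene names here. Members are therefore described by coding length, by place in the table and by their counts, and 6 of them by identifier. The check of the embryo against marker genes and the counts over gene lists were for the same reason not made.

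The members held 18.7% of the counts in monosome replicate 1 (95% Clopper-Pearson interval 18.69 to 18.78) and 18.9% in replicate 2 (18.84 to 18.91), a mean of 18.8% ± 0.101 (SD, n = 2). Of the monosome counts on all ranked transcripts, both libraries together, the members held 22.1%. Their 40491 codons are 0.545% of the codons of these transcripts. In the disome libraries they held 21.2% (21.07 to 21.30) and 21.2% (21.07 to 21.34), a mean of 21.2% ± 0.0176 (SD, n = 2). Intervals cover counting error only, and footprints that appear to be counted on several transcripts can make them too narrow. The share was thus higher in both disome libraries than in both monosome libraries.

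Density, the monosome footprints per codon of both libraries together, ran from 15.0 to 98.2 over the members with a median of 27.3 and quartiles of 21.0 and 36.4. The median ranked transcript had 0.291, so that the members' median was 93.9-fold higher, a difference that the choice of members fixes. The density fell steeply over the first ranks and slowly after them, and the 10 densest members held 12.5% of the members' monosome counts. Ranks 3 and 4 had the same monosome counts, as did ranks 7 and 8, so this share appears to count some footprints more than once. There was no step at the limit. The last members inside it, ranked 196 to 200, had 15.8, 15.8, 15.6, 15.1 and 15.0 footprints per codon, and those ranked 201 to 205 had 14.9, 14.8, 14.8, 14.7 and 14.5.

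**Figure D1:**
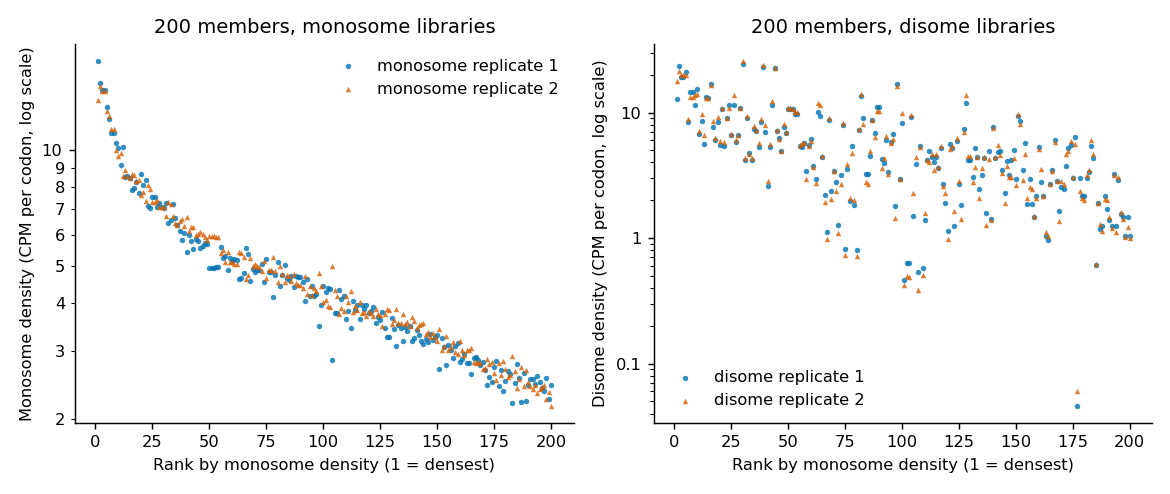
Library-scaled counts (CPM) per codon, on a log scale, for the 200 members in order of monosome density, in the monosome libraries (left) and the disome libraries (right), with circles for replicate 1 and triangles for replicate 2. Monosome values fall smoothly and the replicates lie close together, between 2.16 and 17.0, whereas disome values spread from 0.0463 to 25.6 and the lowest of them stand at rank 177.

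Scaled to the total of each library as CPM, the members had 2.19 to 17.0 CPM per codon in monosome replicate 1, with a median of 4.16, and 2.16 to 14.7 in replicate 2, with a median of 4.25. In the disome libraries they had 0.0463 to 24.3 CPM per codon in replicate 1, with a median of 4.44, and 0.0600 to 25.6 in replicate 2, with a median of 4.48. The medians were close in all 4 libraries, and the disome range was far wider than the monosome range, whose lower end the rule sets.

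The densest member was ENSDART00000173074.2, with a coding sequence of 104 codons. It had 4868 and 5343 monosome counts in replicates 1 and 2, or 1770 and 1401 CPM, and 627 and 675 disome counts, or 1325 and 1850 CPM. Its share was higher in the monosome library than in the disome library of replicate 1 and lower in replicate 2. The log2 ratios were -0.42 and 0.40 with libraries matched by replicate number, a pairing not known to hold. The ranges of both kinds of library overlapped. Its log2 difference between monosome replicates, -0.34 for replicate 2 over replicate 1, was the lowest among the members. The second densest member, ENSDART00000173363.2, likewise had 104 codons. Its monosome counts were 4273 and 5835, or 1554 and 1530 CPM, and its disome counts were 1152 and 816, or 2435 and 2237 CPM, so that both disome values lay above both monosome values.

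The member with the most monosome footprints in all stood at rank 5 and was much longer, with 398 codons. It had 14181 and 19197 monosome counts and 3977 and 2908 disome counts, a density of 83.9 footprints per codon. The members at ranks 7 and 8 both had 310 codons and the same 9461 and 13437 monosome counts, with 2149 and 1501 disome counts in one and 2147 and 1501 in the other, and lay in adjacent rows. Such a pair shares nearly all its footprints in the table and is not independent. Members no more than 30 rows apart were joined pair by pair where their counts lay within 10% of each other in all 4 libraries. Of the 200 members, 52 fell into 23 such groups, the largest with 5 members, and merging them left 171 units. Because counts and not densities were compared, transcripts of unlike length that share footprints can remain separate units. Transcripts with like counts can also be joined without sharing footprints, and 1 group held a member of 104 codons and another of 125. With 1 member kept of each group, an alternative chosen after the data were seen, the median density was 27.5. A further 10 transcripts with exactly the counts of 8 members had been dropped by the rule.

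The members were short. Their coding sequences had up to 618 codons with a median of 137, whereas the median ranked transcript had 427 codons, and the median was 463 among the 7691 ranked transcripts with 100 or more monosome footprints. Of the members, 104 had at most 137 codons, a range that holds 5.07% of the ranked transcripts, 82 had 138 to 400 codons and 14 had more. Length entered the rule as the divisor of the density, so short sequences reach a high density with fewer footprints. Within the members, density and length were weakly related (Spearman's rho = -0.25 across the 200 members, which share libraries and in part footprints). The rule cut the density from below, so this value covers only the densest transcripts.

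Of the 104 short members, 91 had one of 5 exact lengths, picked out after the data were seen because at least 5 members had them. There were 22 members of 104 codons, 23 of 125, 7 of 128, 16 of 129 and 23 of 137, whereas no other length had more than 3. Together these 91 members were 43.8% of the 208 ranked transcripts of these lengths. The 109 members of other lengths were 0.800% of the other 13629, which have up to 2000 codons. Among those of at most 137 codons, 13 of 493, or 2.64%, were members. By length, the members made up 52.4% of the ranked transcripts of 104 codons, 48.9% of those of 125, 25.9% of those of 128, 32.7% of those of 129 and 53.5% of those of 137. The 91 members held 5.71% and 5.98% of the counts in the monosome libraries and 7.29% and 7.53% in the disome libraries, replicates 1 and 2 in each case.

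Those of 104 codons ran from 18.5 to 98.2 footprints per codon with a median of 37.1, and those of 137 codons from 16.1 to 93.6 with a median of 31.1. The medians at 125, 128 and 129 codons were lower, 25.8, 26.3 and 26.5. The ranges of all 5 lengths overlapped. Below the limit, the other 117 ranked transcripts of these lengths reached at most 14.3 footprints per codon, and 45 of them had fewer than 100 monosome footprints.

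These lengths also lay together in the table. When members no more than 30 rows apart were joined into runs, a distance picked after the data were seen, the 200 members fell into 61 runs, of which 28 held a single member and 31 held 2 to 8. The other two were long. One held 36 members within 67 consecutive rows, of which 60 have a coding sequence and 49 were ranked, and all 36 had one of the 5 lengths. The other held 34 members within 53 rows, with 51 coding and 48 ranked, and 31 of them had one of the 5 lengths. What the order of rows follows was not determined. The first run held 8 members of 104 codons, 9 of 125, 6 of 128, 4 of 129 and 9 of 137, and the second held 7, 12, 1, 4 and 7, so that each run contained all 5 lengths. Of the 91 members with these lengths, 67 lay in the 2 long runs and 24 in 12 others.

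Within the long runs most members formed separate units. The run of 36 fell into 36 units by the 10% criterion, and the run of 34 into 31. Densities ran from 17.0 to 98.2 in the first and from 15.1 to 79.8 in the second. The first held 2.24% and 2.31% of the monosome counts and 2.90% and 2.95% of the disome counts, and the second 2.11% and 2.18% of the monosome and 2.47% and 2.55% of the disome counts. The authors kept only uniquely mapping reads, so a transcript that shares its sequence with a near-identical copy can be undercounted. Which members have such copies was not tested.

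Most members of other lengths lay in smaller runs, and a few in the run of 34. One run placed 8 members of 185 to 405 codons in 18 rows as 4 units, with densities from 16.0 to 32.4. Another held 4 of 195 to 338 codons in 5 rows as 2 units, with densities from 45.6 to 48.7. The longest member, of 618 codons, stood in a run of 4, or 3 units, whose densities were 15.8 to 20.1, close to the limit. The next longest, of 523 and 521 codons, formed a pair of 1 unit with densities of 15.0 and 15.6. Among the 14 members of more than 400 codons the highest density was 28.2, in one of 429 codons with 5235 and 6868 monosome counts and 1183 and 896 disome counts.

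Disome footprints were next compared with monosome footprints member by member. The members carried 6 to 6885 disome footprints, with a median of 618.5, and 0.0438 to 20.9 per codon, with a median of 3.78 against 0.0294 over the ranked transcripts. Of the 200 members, 151 were also among the 200 ranked transcripts with the most disome footprints per codon, and 199 were among the 1000 with the most. The exception stood at disome rank 5489. The limit on the disome share had already removed 458 transcripts, so the rule partly shapes these counts. Across the members, monosome and disome density rose together (Spearman's rho = 0.641, n = 200). Both densities are divided by the same length, and members share libraries. The rule cut the monosome density from below and the ratio from above, so the value holds for that narrowed range only.

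**Figure D2:**
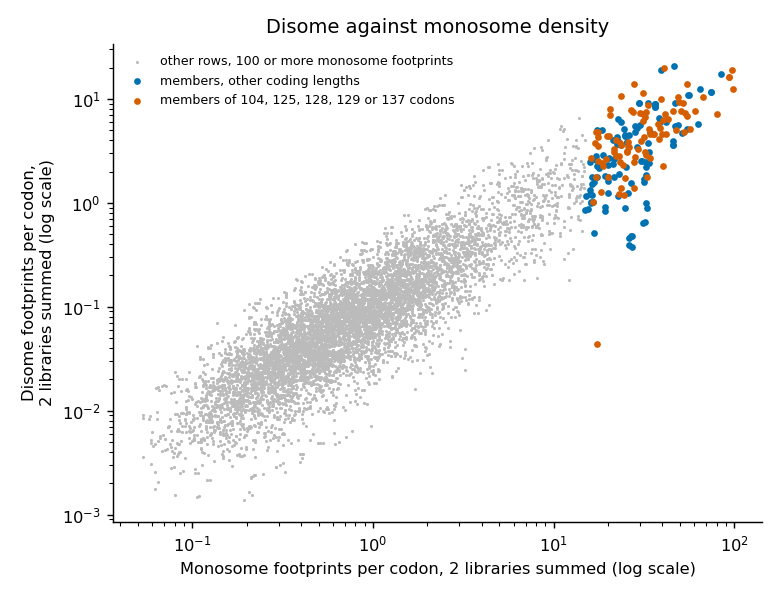
Disome against monosome footprints per codon, both libraries of each kind summed and both axes on log scales, for the 200 members (orange, the 5 frequent lengths; blue, other lengths) and in gray the other ranked transcripts with 100 or more monosome footprints and at least 1 disome footprint. The members continue the gray cloud at its right end, and 1 member lies far below, at 0.0438 disome footprints per codon.

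The ratio of a member's share of all disome counts to its share of all monosome counts ran from 0.0198 to 3.90, with a median of 1.03 and quartiles of 0.673 and 1.44. The upper end is cut at 4 by the rule. A ratio over 1 was found in 105 members and under 1 in 95, with 20 at 2 or more, 33 at 0.5 or less and 11 at 0.25 or less. For ratios by replicate, disome and monosome libraries were matched by number, a pairing not known to hold. The median log2 ratio was 0.07 for replicate 1 and 0.03 for replicate 2, and 182 of the 200 members lay on the same side of 0 in both. The difference between a member's 2 log2 ratios had a median size of 0.12 and reached at most 0.82, so the range between members was far wider than that between replicates.

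**Figure D3:**
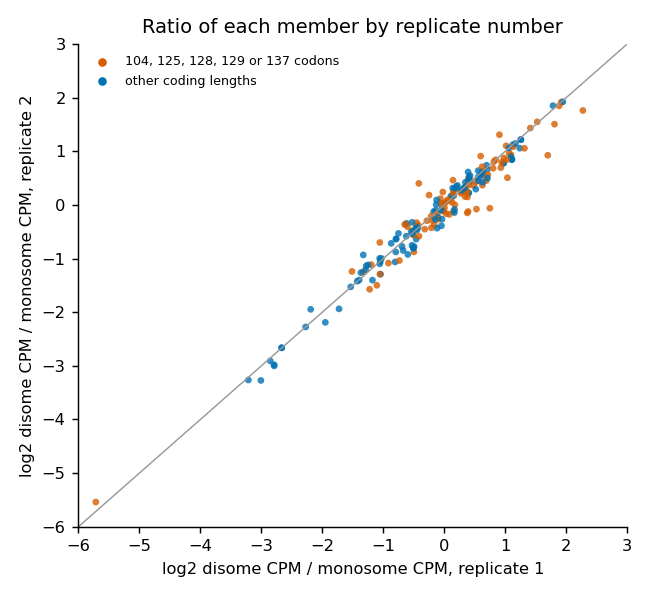
Log2 ratio of disome to monosome CPM for each of the 200 members in replicate 1 (horizontal) and replicate 2 (vertical), with the line of equality, orange for the 5 frequent lengths and blue for other lengths. Points follow the line over a range from -5.71 to 2.27 in replicate 1, and the points farthest from it differ by 0.82.

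The scale of the ratio was also set by a fit over all transcripts. edgeR's quasi-likelihood test with TMM normalization was fitted to the 16910 transcripts with at least 20 footprints, and all 200 members passed that filter. The median log2 ratio was -0.13 over all transcripts tested and 0.27 over the members, a difference of 0.40, and with library totals in place of TMM the median of all transcripts moved by -0.22. Relative to the median transcript, the members ran from -5.28 to 2.34 with quartiles of -0.21 and 0.87, and the quartiles of all transcripts tested were -0.72 and 0.68. Of the members, 131 lay above the median transcript and 69 below.

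At an FDR of 0.01, 95 members, or 47.5%, were called higher in disomes and 51, or 25.5%, were called lower, while 54 were not called. Over all transcripts tested, 11.8% were called higher and 9.72% lower. Calls depend on depth, and the members are deep. Among the 611 transcripts with at least the 2094 footprints of the member with fewest, 39.4% were called higher and 26.4% lower. These 611 include the members themselves. Because the rule cut the ratio from above and chose on its denominator, nothing is read from these counts. With library totals in place of TMM, 79 members were called higher and 70 lower. Over all 16910 transcripts tested, that setting called 1562 higher and 2519 lower.

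The 2 members with the highest fitted ratios were ENSDART00000193414.1, of 137 codons and rank 98, and ENSDART00000154389.2, of 105 codons and rank 44. The first had 1088 and 811 disome counts, or 2300 and 2223 CPM, against 1309 and 2503 monosome counts, or 476 and 656 CPM. The second had 1122 and 873 disome counts, or 2372 and 2393 CPM, against 1695 and 2407 monosome counts, or 616 and 631 CPM. In both, each disome value was more than 3-fold above each monosome value, and in the first the monosome libraries differed from each other by 0.46 on the log2 scale. Their fitted log2 ratios were 2.22 and 2.16. The member with the most disome footprints per codon, 20.9, was another short one, of 114 codons, with 1311 and 1066 disome counts against 2216 and 3091 monosome counts.

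The lowest ratio stood far from all others. ENSDART00000181917.1, of 137 codons and rank 177, had 3 and 3 disome counts, or 6.34 and 8.22 CPM, against 915 and 1458 monosome counts, or 333 and 382 CPM. Its fitted log2 ratio was -5.41, and the 95% Clopper-Pearson intervals of its disome values, 1.31 to 18.5 and 1.70 to 24.0 CPM, lay far under its monosome values. The same length thus held both the highest and the lowest ratio. The next lowest was ENSDART00000140001.2, of 253 codons, with 55 and 39 disome counts, or 116 and 107 CPM, against 2964 and 3918 monosome counts, or 1078 and 1027 CPM, and a fitted log2 ratio of -3.00.

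ENSDART00000140001.2 belonged to a run of 8 members in 9 consecutive rows, which held 8 of the 9 lowest ratios among the members. Their coding sequences had 212 to 363 codons. Each had 5553 to 11677 monosome footprints but only 84 to 314 disome footprints, and the ratios were 0.107 to 0.211 with a median of 0.139. The run held 1.20% and 1.07% of the monosome counts and 0.183% and 0.156% of the disome counts. It formed 6 units by the 10% criterion, so that part of its uniformity is that of shared footprints. Its densities were 26.0 to 32.8, and whether the 6 units share further footprints was not tested. Next to it in the order of ratios were members of 150 codons (43 and 34 disome counts against 1141 and 1370 monosome counts) and of 141 codons (84 and 56 against 1887 and 2670), each in another run.

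**Figure D4:**
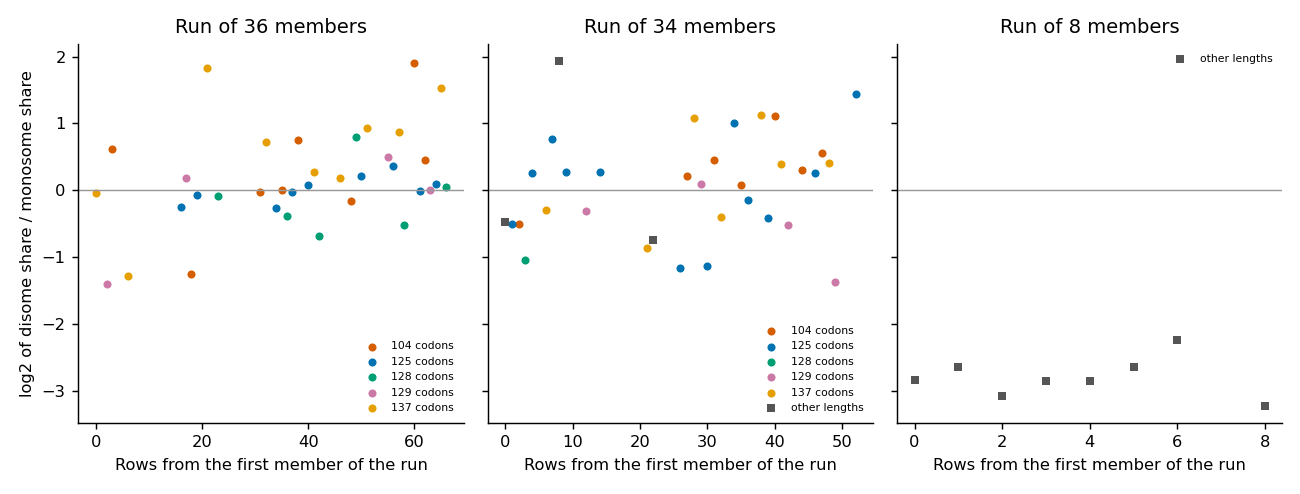
Log2 of the disome share over the monosome share (vertical) by the number of rows from the first member of the run (horizontal) for the runs of 36, 34 and 8 members, colored by coding length, with gray squares for other lengths. Ratios in the 2 long runs scatter on both sides of 0 at every length shown by several members, whereas the 8 members of the third run lie together between -3.22 and -2.25.

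In the long runs the ratio varied from member to member. It ran from 0.379 to 3.75 in the run of 36, with 20 members over 1, and from 0.386 to 3.81 in the run of 34, with 19 over 1. Smaller runs differed in how uniform they were. A run of 7 members, which holds ENSDART00000181917.1, ran from 0.0198 to 2.28, wider than either long run. In a run of 6 members within 13 rows, with 104 to 137 codons, all 6 ratios lay over 1, from 1.17 to 3.90. In one of 6 members in 6 rows, with at most 104 codons, they were 1.80 to 3.06, and these form only 2 units of shared counts. In one of 5 members of 163 to 341 codons, which formed 5 separate units, they were 0.399 to 0.600. The densities in that run were 31.4 to 33.5, and whether its units share footprints was not tested.

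By length, the ratio had a median of 1.37 among the 22 members of 104 codons, with 17 over 1, and of 1.36 among the 23 of 137 codons, again with 17 over 1. It was 1.05 at 125 codons, 0.763 at 128 and 0.930 at 129. Within each length the values spread widely, from 0.419 to 3.75 at 104 codons, 0.446 to 2.70 at 125, 0.487 to 1.73 at 128, 0.379 to 1.54 at 129 and 0.0198 to 3.90 at 137, and all 5 ranges overlapped. The 13 members of other lengths up to 137 codons had a median of 1.80, but 5 of them shared their footprints, and with 1 member kept of each such group the median of the remaining 9 was 0.950. The 96 members over 137 codons had a median of 0.861, with 41 over 1, and keeping 1 of each group left 75 with a median of 0.741. The other ranked transcripts over 137 codons with 100 or more monosome footprints, from which shared counts within 10% were not removed, had a median of 0.769 that lay between these values. At the 5 lengths this step left 89 of 91 members and a median of 1.06. Groups were reduced within each set of lengths, so a group that spans sets was counted in each of them. At the 5 lengths, the 72 such transcripts outside the members had a median of 0.965 and a range of 0.0996 to 3.40, against 1.07 for the 91 members. By length, the medians outside the members were 0.974 at 104 codons, 1.38 at 125, 0.617 at 128, 0.718 at 129 and 1.46 at 137. They thus lay above the members' medians at 125 and 137 codons and below them at 104, 128 and 129.

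**Figure D5:**
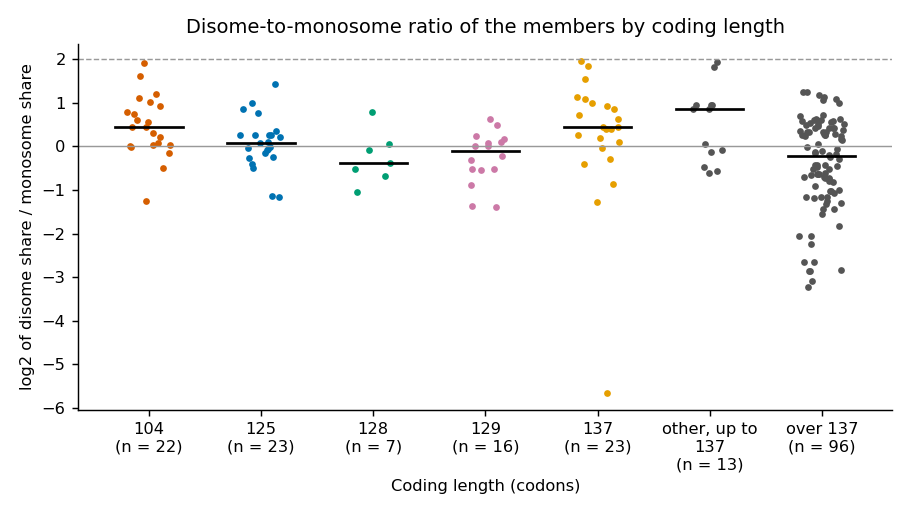
Log2 of the disome share over the monosome share for each member (points) by coding length in codons, with the median of each class (black line), 0 (gray line) and the limit at a ratio of 4 that the rule sets (dashed line). The median of the 13 members of other lengths up to 137 codons, 1.80 as a ratio, falls to 0.950 when shared footprints are counted once, and the lone point near the bottom is a member of 137 codons at a ratio of 0.0198.

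The 20 members with a ratio of 2 or more came from 11 runs and had 104 to 349 codons with a median of 137, and 12 of them had one of the 5 lengths. The 33 members with a ratio of 0.5 or less came from 14 runs and had 104 to 523 codons with a median of 192, and 8 had one of the 5 lengths. By density, the median ratio was 1.20 over the 50 densest members, 1.01 and 1.05 over the next 50 and the 50 after them, and 0.878 over the last 50, with 31, 26, 27 and 21 members over 1. With 1 member kept, within each class, of each group that appears to share footprints, the medians were 1.20, 1.00, 0.992 and 0.950. A group that spans classes was counted in each of them. The median coding length in these classes was 129, 137, 170.5 and 155.5 codons, so length also differed between the classes, and its part in the ratios was not tested.

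The replicates were compared last. In the monosome libraries, the log2 difference of replicate 2 over replicate 1 in CPM ran from -0.34 to 0.81 with a median of 0.03, and 197 members differed by at most 1.3-fold. The other 3 had 104 or 137 codons and were higher in replicate 2. The widest difference was that of a member of 104 codons with 814 and 1981 monosome counts, or 296 and 519 CPM, whose disome values of 960 and 987 CPM differed little. In the disome libraries the differences ran from -0.49 to 0.60, and 193 members differed by at most 1.3-fold. Counting error alone would give a mean chi-square near 1 per transcript and a median below 1. In the monosome libraries it was 11.6 among the members, with a median of 3.68. Over the 7491 other ranked transcripts with 100 or more monosome footprints the mean was 1.80. Every member had at least 1850 monosome footprints, so these means were taken at unlike depth. In the disome libraries the mean was 1.75 among the members, with a median of 0.689. Over the 1230 other ranked transcripts with 100 or more disome footprints it was 1.51. At the members' depth the differences between monosome replicates therefore exceeded counting error, though the order of the members was nearly the same (Spearman's rho = 0.964 across the 200 members in the monosome and 0.991 in the disome libraries).

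Membership changed little with the way of ranking. With monosome replicate 1 alone 197 of the 200 members were found again, and with replicate 2 alone 198, and 195 were found with each. With the mean of both CPM values all 200 were found. Without the limit on the disome share, 1 other transcript entered, of 240 codons, with 1591 and 2173 monosome counts, 1929 and 1444 disome counts and a ratio of 7.02. Without the limits on length, 16 transcripts of at most 100 codons entered, of 531 such transcripts, while none of the 356 over 2000 codons was dense enough and the densest of these had 1.92 footprints per codon.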

How the data were processed

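Monosome and disome footprints of wild-type embryos at 4 hpf were analysed, 2 libraries of each kind. The authors trimmed reads with fastp and mapped them with STAR (2.7.0a in the submitters' processing notes, which also name CASAVA 1.8) to GRCz11, keeping reads with up to 1 mismatch and a single locus, and deposited raw counts of footprints on the coding sequence of each transcript with the coding length in codons. The counting tool is not given in the sources used here. A footprint that fits several transcripts appears to be counted on each, so totals can exceed the footprints sequenced.

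CPM used the library total of the table. Disome and monosome counts were compared with edgeR 4.0.16 in R 4.3.3 (TMM, quasi-likelihood test, Benjamini-Hochberg FDR of 0.01, at least 20 footprints over the 4 libraries), tested on simulated data first. The named transcripts were the 2 densest members and those with the 2 highest and 2 lowest fitted ratios. The members, the lists and the alternatives were chosen with earlier results of these data known. Gene lists and marker genes could not be matched to transcript identifiers and were not used, nor were promoter or protein sequences. Positions of footprints along coding sequences were not analysed here. Plots were drawn with matplotlib 3.10.9.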

Additional observations from a re-analysis of the deposited data

How the results depend on the processing

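The choice of members kept 184 or more of the 200 under the rankings tried, and taking only the 100 densest left 100. Between the disome and monosome libraries, 3637 of the transcripts tested were called with edgeR at an FDR of 0.01, against 2148 with DESeq2 1.42.0 and 2120 to 2884 when 1 library was left out, fewest without disome replicate 1. Of the calls, 54.8% were higher in disomes with TMM, 38.3% with library totals, 43.7% without the count filter, 68.1% with DESeq2 and 62.9% without disome replicate 1. The members' median log2 ratio was 0.27 with TMM, 0.0478 with library totals, 0.10 without the count filter and 0.26 to 0.36 with 1 library left out, so its sign held but its size depends on the scale. Relative to the median transcript, the members' median was 0.40 with TMM and with library totals, 0.62 without the count filter and 0.37 to 0.46 with 1 library left out. The fitted log2 ratio of ENSDART00000173074.2, 0.21 with TMM, was -0.0057 with library totals, 0.43 and 0.0014 without disome replicate 1 and 2, and 0.42 and 0.12 without monosome replicate 1 and 2. A fit with the replicate block called 3448 of 16910 transcripts, 1895 higher and 1553 lower, with 93 members higher and 49 lower. Deviations of libraries with the same replicate number were nearly uncorrelated (r = 0.01 over 5836 transcripts). This does not settle whether the libraries were paired, since counting error in transcripts with few footprints can hide a shared deviation. The paper describes 2 additional disome libraries as corresponding to published monosome libraries. DESeq2 called 88 members higher and 44 lower, and of the 16910 transcripts entered it called 1463 higher and 685 lower. Its default filter on mean counts can leave transcripts with few footprints without an adjusted p-value, so its share of calls is not comparable with that of edgeR. Counting 1 member of each group that appears to share footprints, chosen after the data were seen, gave a median log2 ratio of 0.25. Keeping 1 transcript per gene was not run, since transcripts were not paired with genes. Disome depth limits the ratios of members with few disome footprints.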
